A study of Mus musculus with 6 samples.

Results

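The Slco genes encode the organic anion transporting polypeptides, a family of plasma membrane carriers. Transcripts of 8 family members, Slco1a1, Slco1a4, Slco1a6, Slco2a1, Slco2b1, Slco3a1, Slco4a1 and Slco4c1, were examined in primary renal tubular epithelial cells (PTECs) of mice. The members were taken by symbol from a count table of 46095 genes, and all 8 passed the filter on low counts, which 14611 genes of the table passed. PTECs were isolated from mice of 10 weeks of age on a C57 background. In the group labelled VHL-KO (replicates 1, 2 and 4), Ksp-Cre, a Cre recombinase under the promoter of the tubular cadherin gene Cdh16, was combined with VHL fl/fl. The group labelled VHL-KO;SETD2-KO (replicates 2, 3 and 4) carried Ksp-Cre and VHL fl/fl and, in addition, Setd2 fl/fl. VHL, the tumour suppressor whose loss stabilises hypoxia-inducible factors, was thus targeted in both groups, and no library without Ksp-Cre was analysed here. SETD2 trimethylates lysine 36 of histone H3, and the study asked how its loss promotes renal fibrosis in VHL-deficient tubules. The Cdh16 promoter is not equally active in all tubule segments, which limits the model where a gene belongs to the proximal tubule, and Cdh16 itself stood at 331 to 2252 CPM in these libraries.

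Organic anion transporting polypeptides exchange large amphipathic organic anions across the membrane without using ATP. Their substrates include bile salts, conjugated steroids, prostaglandins, thyroid hormones and many drugs. In the kidney, members of the Slco1a subfamily lie in the apical membrane of proximal tubule cells, Slco4c1 lies on the basolateral side, and Slco2a1 takes up prostaglandins. In mice, Slco1a1 is known as a gene that is higher in males and depends on androgens, in kidney as well as liver.

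Each library held between 11168552 and 17883466 counts, so that 3 counts, the smallest signal taken here as detectable, corresponded to 0.159 to 0.280 CPM, the count scaled to a common library total with TMM factors. This floor covers counting error only, because no molecular identifiers were used to tell molecules from PCR copies. Setd2 went against its label, with 132 to 1179 counts under VHL-KO and 1019 to 1499 under VHL-KO;SETD2-KO. Gene counts do not show whether the floxed exons were present, so every direction below is a direction between libraries labelled so. Vhl was detected in all 6 libraries, at 11.8 to 25.8 CPM. The library labelled VHL-KO replicate 4 stood apart, with a Spearman correlation of 0.717 to 0.765 with the other libraries, which correlated with each other at 0.937 to 0.987. Mitochondrial transcripts took 11.3% of its counts and 25.9% to 36.4% of the counts of the others. Replicate 3 of the group labelled VHL-KO;SETD2-KO held 11704 counts of Xist, the transcript of the inactive X chromosome, and 1 count summed over 4 Y-linked genes. The others held 0 to 4 counts of Xist and 260 to 3283 of the Y-linked genes. Values are therefore given with and without these 2 libraries, called below those that stood apart. VHL-KO replicate 4 did so by correlation, and VHL-KO;SETD2-KO replicate 3 by Xist and Y-linked counts only. Proximal tubule markers were abundant in all libraries, at a summed 15980 to 27140 CPM over 10 genes under the label VHL-KO and 6537 to 9021 CPM under VHL-KO;SETD2-KO. Markers of podocytes (5 genes, 1435 to 4828 CPM) and endothelium (7 genes, 1066 to 4559 CPM) were also present, so the preparation was not of tubular cells alone. In such bulk samples, fewer cells of a type and less RNA per cell cannot be told apart.

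The members lay on 5 chromosomes of GRCm38. Slco1a4 (ENSMUSG00000030237.14, chr6:141805440-141856199), Slco1a1 (ENSMUSG00000041698.11, chr6:141907282-141946962) and Slco1a6 (ENSMUSG00000079262.3, chr6:142085761-142208521) lay side by side on the minus strand of chromosome 6. Slco3a1 (ENSMUSG00000025790.14, chr7:74275419-74554780) and Slco2b1 (ENSMUSG00000030737.17, chr7:99657804-99711340) were both on the minus strand of chromosome 7. Slco2a1 (ENSMUSG00000032548.14, chr9:102988712-103096002) and Slco4a1 (ENSMUSG00000038963.15, chr2:180456245-180474867) were on the plus strands of their chromosomes, and Slco4c1 (ENSMUSG00000040693.7, chr1:96816270-96872171) on a minus strand. Of all 50-base words in the transcripts, 2.26% for Slco1a1, 2.73% for Slco1a4 and 5.6% for Slco1a6 also occurred in other genes, mostly in Slco1a relatives. Reads on these words may have been split between copies, and how the counting treated them is not given in the sources used here. For Slco2a1 the share was 0.778%, and for the other 4 members it was 0.

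The sequences upstream of the start site show how unlike the members are at their promoters. RefSeq entries for GRCm38.p6 covered 7 of the 8 members, with 10 windows of 250 bases ending at the annotated start, and 4 of these windows are printed 5′ to 3′ on the gene's strand. They are those of the chromosome 6 genes with high counts, the prostaglandin transporter and the member with hypoxia response cores. Capitals mark matches to TATAAA or GCGTG on either strand, a match on the reverse strand reading TTTATA or CACGC.
Slco1a1 (chr6:141946963-141947212, minus strand): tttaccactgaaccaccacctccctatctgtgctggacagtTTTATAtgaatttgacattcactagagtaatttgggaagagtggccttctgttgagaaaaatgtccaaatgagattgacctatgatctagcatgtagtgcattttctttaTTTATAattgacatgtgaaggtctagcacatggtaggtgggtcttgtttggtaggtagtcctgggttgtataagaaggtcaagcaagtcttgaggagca
Slco1a6 (chr6:142186150-142186399, minus strand): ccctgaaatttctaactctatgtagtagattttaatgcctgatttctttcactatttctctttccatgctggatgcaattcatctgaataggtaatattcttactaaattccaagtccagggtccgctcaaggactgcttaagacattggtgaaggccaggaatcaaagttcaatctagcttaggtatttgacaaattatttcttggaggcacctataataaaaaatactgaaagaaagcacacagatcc
Slco2a1 (chr9:103008237-103008486, plus strand): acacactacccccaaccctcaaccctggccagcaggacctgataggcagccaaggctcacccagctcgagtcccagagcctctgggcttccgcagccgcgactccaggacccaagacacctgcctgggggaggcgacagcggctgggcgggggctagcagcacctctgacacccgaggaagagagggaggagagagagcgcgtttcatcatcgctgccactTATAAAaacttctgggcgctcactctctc
Slco4a1 (chr2:180455995-180456244, plus strand): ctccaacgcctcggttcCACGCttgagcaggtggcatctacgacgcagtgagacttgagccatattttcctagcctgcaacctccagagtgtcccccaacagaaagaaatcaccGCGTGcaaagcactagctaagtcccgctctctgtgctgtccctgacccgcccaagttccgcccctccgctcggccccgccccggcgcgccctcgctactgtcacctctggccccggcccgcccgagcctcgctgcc
Windows of the chromosome 6 genes were poor in G and C, at 40.4% for Slco1a1, 39.2% for Slco1a4 and 36.4% for Slco1a6, with at most 1 CG dinucleotide. Slco2a1 had 63.2% G and C with 12 CG dinucleotides, the first window of Slco4a1 had 64.8% with 21, and that of Slco4c1 had 66.4% with 19. The median over 32851 mouse promoters was 52.4% with 6 CG dinucleotides. TATAAA was found in the windows of Slco1a1, with 2 matches, and Slco2a1, with 1, and in 12.4% of all promoters. The hypoxia response core GCGTG occurred 2 times in each of the 2 windows of Slco4a1 and in no window of another member, against 28.2% of all promoters. The other hypoxia response core, ACGTG (16.6% of all promoters), was found in none of the 10 windows. The 2 hypoxia cores share the bases CGTG, and no match overlapped another. A match is only a match of letters, and the binding of factors was not measured.

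Slco1a1, Slco1a6, Slco3a1 and Slco2a1 carried most Slco transcripts in these cells, and the other 4 members were low. Levels were compared between genes as CPM per kilobase of the longest annotated transcript, over the 6 libraries. The median was 53.2 CPM per kb for Slco1a1, with libraries from 0.158 to 205.3. It was 40.5 for Slco1a6 (14.1 to 89.2), 29.1 for Slco3a1 (12.2 to 56.1) and 16.2 for Slco2a1 (10.9 to 28.3). A step separated these from Slco4a1 at 1.57 CPM per kb (0.624 to 3.34), Slco2b1 at 1.20 (0.605 to 6.29), Slco4c1 at 0.283 (0.0761 to 0.734) and Slco1a4 at 0.151 (0.0147 to 0.617). Slco2a1 and Slco4a1 were the only neighbours in this order whose libraries did not overlap, and all other neighbours overlapped. With the mean transcript length in place of the longest, Slco1a6 came first at 90.9 CPM per kb and Slco3a1 next at 75.6, ahead of Slco1a1 at 62.5, and Slco2b1 passed Slco4a1, while the high and low groups of 4 kept their members.

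**Figure D1:**
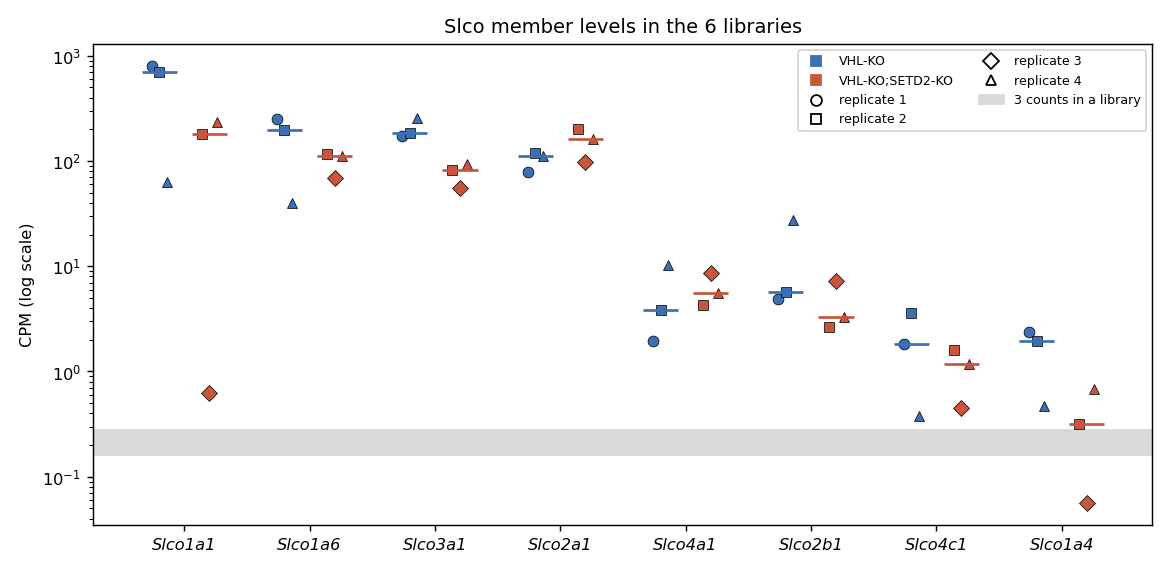
CPM on TMM-scaled library sizes (log scale) of the 8 Slco members, with 1 point per library for the 3 libraries of each label, a line at each label's median and a grey band at the CPM of 3 counts (0.159 to 0.280). Slco3a1 is the member whose libraries labelled VHL-KO;SETD2-KO (55.8 to 93.2 CPM) all lie below those labelled VHL-KO (174 to 258 CPM), and Slco1a1 has the widest range.

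The make-up of the family differed greatly between libraries. Summed over the 8 members, the libraries labelled VHL-KO replicates 1, 2 and 4 held 1315, 1217 and 509.5 CPM, and VHL-KO;SETD2-KO replicates 2, 3 and 4 summed to 586.9, 238.7 and 613.9 CPM. Slco1a1 took 60.9% of Slco counts (exact binomial 95% interval 60.3 to 61.6) and 57.6% (56.7 to 58.4) in VHL-KO replicates 1 and 2, and 12.3% (11.4 to 13.2) in replicate 4. Under VHL-KO;SETD2-KO it took 30.4% (29.6 to 31.3) in replicate 2, 0.259% (0.129 to 0.463) in replicate 3 and 38.6% (37.6 to 39.5) in replicate 4. These intervals cover counting error only, and the spread between libraries of a label was far wider than any of them. The share of Slco2a1 was 5.92%, 9.81% and 21.8% under VHL-KO and 34.3%, 40.8% and 26.3% under VHL-KO;SETD2-KO, without overlap. A share also rises where the counts of other members fall. The levels of Slco2a1 themselves overlapped, at 77.9 to 119 CPM under VHL-KO and 97.4 to 201.5 CPM under VHL-KO;SETD2-KO. Slco3a1 ranged from 13.2% to 50.5% and Slco1a6 from 7.81% to 28.7%, while Slco2b1 reached at most 5.41%, Slco4a1 3.65%, Slco4c1 0.296% and Slco1a4 0.179%.

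**Figure D2:**
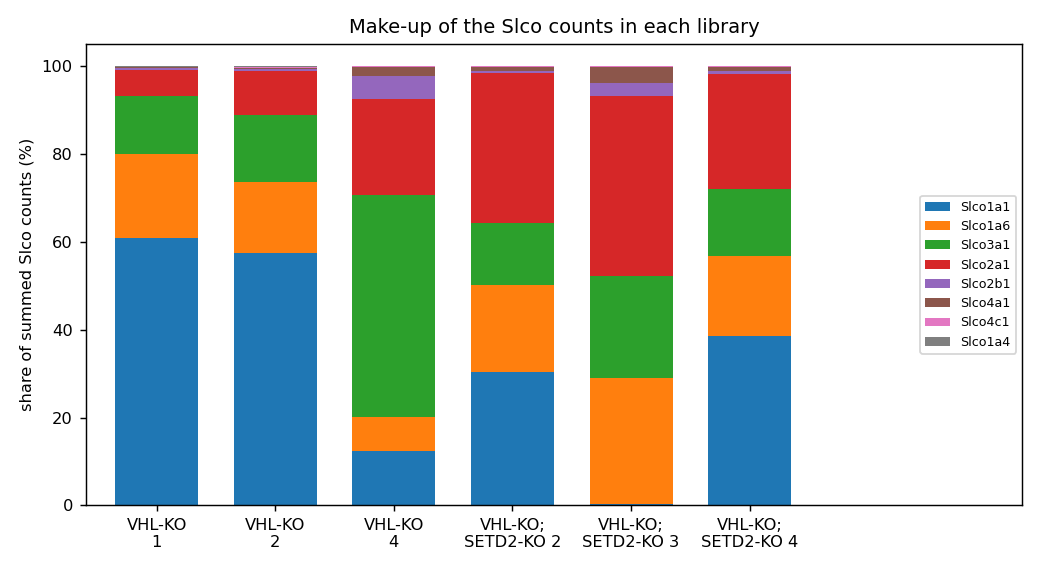
Percent of the summed counts of the 8 Slco members taken by each member, as 1 stacked bar per library. Slco1a1 takes 60.9% and 57.6% in VHL-KO replicates 1 and 2 and 0.259% in VHL-KO;SETD2-KO replicate 3, where Slco2a1 takes 40.8%.

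Between the labels, Slco3a1 and Slco1a4 were lower under VHL-KO;SETD2-KO and no member was higher. Calls used the study's thresholds, a p under 0.05 with a change of 1.5-fold or more, in edgeR's quasi-likelihood test. The study used DESeq2 and does not say whether its p was adjusted. The unadjusted p was taken here, and adjusted values are given after it. By this rule 2 of 8 members were called lower, against 4.68% of all tested genes, and 0 of 8 were called higher, against 2.66%. The sign of the log2 fold change was negative for 6 members and positive for 2, with a median of -1.13 over the members and 0.01 over all tested genes. After Benjamini-Hochberg adjustment no member was called by edgeR, DESeq2 or limma-voom, which called 2, 3 and 2 members at the unadjusted threshold. DESeq2 gave an adjusted p of 0.0551 for Slco3a1. It gave none for Slco1a4, Slco2b1, Slco4a1 and Slco4c1, which therefore could not be called by it. In edgeR, with adjustment over all tested genes, 0.00684% of them, 1 gene, Gm6344, passed. The groups did not overlap for 1 of the 8 members, Slco3a1, against 20.6% of all tested genes, so the count of members without overlap was not above the background.

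The 2 libraries that stood apart, VHL-KO replicate 4 and VHL-KO;SETD2-KO replicate 3, set much of the spread. Leaving out both, an alternative added after the data had been seen, left 2 libraries per label and gave 5 members called lower and 1 higher at the unadjusted threshold. Under it 10.4% of all tested genes were called lower and 13.4% higher. At an adjusted p under 0.05 the edgeR test called Slco1a1, Slco1a4, Slco1a6 and Slco3a1 lower and Slco2a1 higher, 5 of 8 members, against 16.8% of all tested genes in either direction. Without VHL-KO replicate 4 alone, 3 members were called lower, against 7.15% of genes, and without VHL-KO;SETD2-KO replicate 3 alone, 1 member was, against 2.2%. Slco3a1 was the only member called lower under all of these choices.

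**Figure D3:**
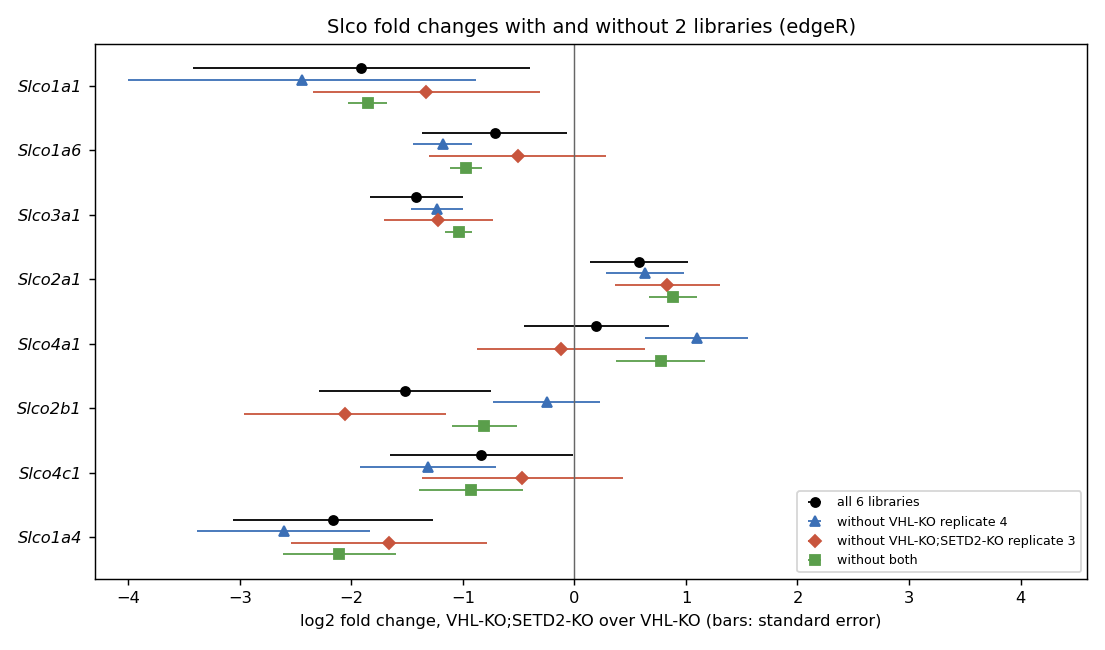
Log2 fold change (VHL-KO;SETD2-KO over VHL-KO) of each Slco member from edgeR with bars of 1 standard error, for all 6 libraries, without either of the 2 libraries that stood apart, and without both. The value of Slco3a1 stays between -1.42 and -1.04, while that of Slco4a1 goes from -0.12 to 1.09.

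Slco1a1, an apical carrier of bile salts and steroid conjugates, had the highest counts of all members in 3 of 6 libraries, VHL-KO replicates 1 and 2 and VHL-KO;SETD2-KO replicate 4. Slco3a1 was higher in VHL-KO replicate 4, and Slco2a1 in VHL-KO;SETD2-KO replicates 2 and 3. The level of Slco1a1 was 801.5, 700.3 and 62.6 CPM in VHL-KO replicates 1, 2 and 4, and 178.5, 0.618 and 236.6 CPM in VHL-KO;SETD2-KO replicates 2, 3 and 4. The labels overlapped, since VHL-KO replicate 4 lay below 2 of the libraries labelled VHL-KO;SETD2-KO. In replicate 3 of the latter the gene stood at 11 counts, the lowest of all libraries. Means were 521 ± 401 CPM (SD, n = 3) and 139 ± 123 CPM (n = 3), a 3.76-fold difference that did not pass the edgeR test (log2 fold change -1.91, SE 1.51, adjusted p = 0.690). Without the 2 libraries that stood apart the log2 fold change was almost the same, -1.85, but its SE fell to 0.17, and it passed the edgeR test at an adjusted p of 0.00597. That choice was made after the data had been seen and removed the lowest Slco1a1 library of each label, so it narrowed the spread by itself. Under it 16.8% of all tested genes passed. Leaving out single libraries moved the log2 fold change from -2.54 (without VHL-KO;SETD2-KO replicate 4) to -1.33 (without VHL-KO;SETD2-KO replicate 3), and limma-voom gave -3.44, in no case with a call.

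Genes with a known sex bias in the mouse kidney also differed between the libraries. Of 7 genes known to be higher in male kidney, all were tested and 3 were called lower under VHL-KO;SETD2-KO, against 4.68% of all tested genes. The list median log2 fold change was -1.92, all 7 being negative. Cyp2e1, a cytochrome P450 (log2 fold change -2.37, edgeR adjusted p = 0.625), Odc1, the ornithine decarboxylase of polyamine synthesis (-2.21), and Cyp4a12b, a fatty acid hydroxylase (-1.47), were those called. The summed level of this list was 23600, 22330 and 15340 CPM under VHL-KO and 8587, 1613 and 8977 CPM under VHL-KO;SETD2-KO. Of 3 genes known to be higher in female kidney, 2 were called higher, against 2.66% of all tested genes. They were Prlr, the prolactin receptor (3.37), and Cyp4a14, another fatty acid hydroxylase (4.17). The summed level of the list was 854.5 CPM in VHL-KO;SETD2-KO replicate 3 and 6.74 to 31.3 CPM in the other 5 libraries. Neither Prlr nor Cyp4a14 was called without that library. Of the 4 Y-linked genes 0 were called, and Kdm5d (log2 fold change -0.28) and Uty (-0.37) had 0 counts in that library. Among the libraries other than replicate 3 the Y-linked sum was 162 to 205.6 CPM, except for 24.3 CPM in VHL-KO replicate 4, where Slco1a1 was also low. The autosomal Setd2 was low there too, at 12.3 CPM against 71.3 and 73.8 in VHL-KO replicates 1 and 2. VHL-KO replicate 4 held 0 counts of Xist. Of the male list, Cyp2e1 (4555 CPM), Odc1 (2155) and Cyp4a12b (12.7) were highest in VHL-KO replicate 4, and the other genes of that list were not. Without both libraries 7 of 7 genes of the male list were called lower by the same rule, as was Slco1a1, against 10.4% of all tested genes. The part of the sex-biased genes in the difference in Slco1a1 was not tested.

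**Figure D4:**
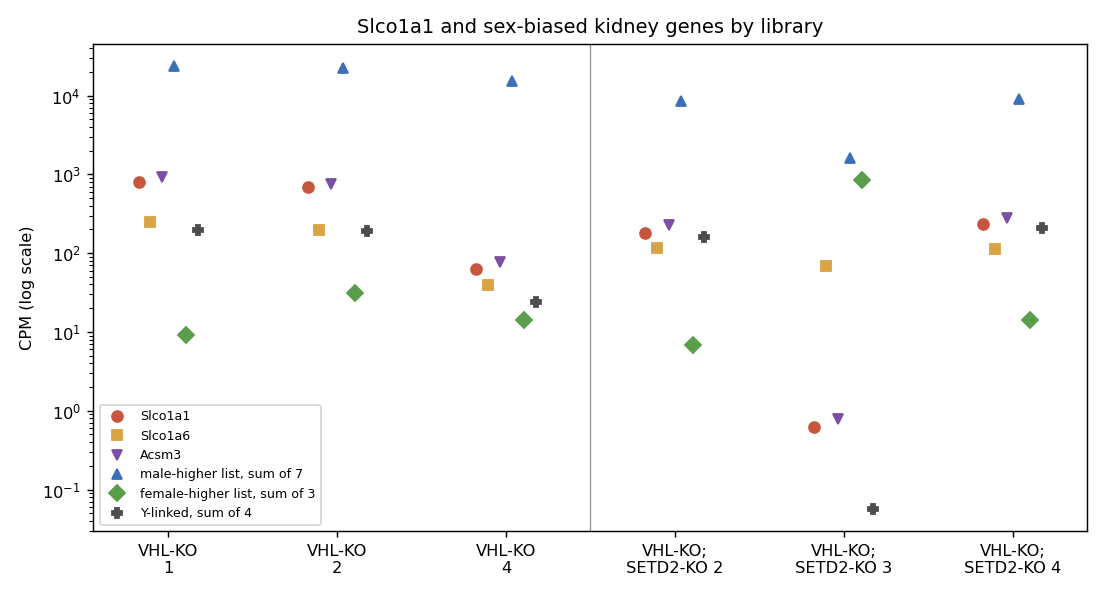
CPM (log scale) in each of the 6 libraries for Slco1a1, Slco1a6 and Acsm3, the gene most like Slco1a1, and summed CPM for the 7 genes higher in male kidney, the 3 higher in female kidney and 4 Y-linked genes. In VHL-KO;SETD2-KO replicate 3, Slco1a1 is at 0.618 CPM and the Y-linked sum at 0.0562 CPM, while the female list is at 854.5 CPM.

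Slco1a6 is a close relative of Slco1a1 that is found mainly in kidney. It was at 251, 196 and 39.8 CPM under VHL-KO and at 116, 68.5 and 112 CPM under VHL-KO;SETD2-KO. All libraries labelled VHL-KO;SETD2-KO lay between VHL-KO replicate 4 and the other 2 libraries of that label. Means were 162 ± 110 and 98.9 ± 26.4 CPM (SD, n = 3 each; log2 fold change -0.72, SE 0.65, edgeR adjusted p = 0.724). Without VHL-KO replicate 4 the gene was called lower at the unadjusted threshold (log2 fold change -1.18, edgeR adjusted p = 0.108). Unlike Slco1a1, which was close to absent from VHL-KO;SETD2-KO replicate 3, Slco1a6 kept 1219 counts there.

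Slco1a4, a carrier of bile salts and cardiac glycosides best known from liver and the blood-brain barrier, was close to the limit of detection. Its counts were 39, 21 and 5 under VHL-KO and 6, 1 and 11 under VHL-KO;SETD2-KO, or 2.36, 1.94 and 0.467 CPM and 0.318, 0.0562 and 0.689 CPM. VHL-KO replicate 4 lay within the range of the other label, and VHL-KO;SETD2-KO replicate 3 lay below the floor of 3 counts. The gene was 4.49-fold lower in the fit (log2 fold change -2.17, SE 0.90, edgeR adjusted p = 0.625). This call was lost when VHL-KO replicate 1 or 2, or VHL-KO;SETD2-KO replicate 2 or 3, was left out (log2 fold changes of -2.09 to -1.66). At least 10 counts in every library would have removed the gene from the test. Of its 103 shared 50-base words, 84 also occurred in Slco1a1, which had 11 to 13245 counts per library. Whether reads of Slco1a1 added to the counts of Slco1a4 was not tested.

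Slco3a1, which carries prostaglandins and thyroxine in many tissues, was the member whose libraries separated by label. It was at 174, 186 and 258 CPM in the libraries labelled VHL-KO and at 81.8, 55.8 and 93.2 CPM in those labelled VHL-KO;SETD2-KO. The lowest library of the first label was thus well above the highest of the second. Means were 206 ± 45.3 and 76.9 ± 19.2 CPM (SD, n = 3 each), a 2.67-fold decrease (log2 fold change -1.42, SE 0.42, edgeR adjusted p = 0.625). The call held whichever of the 6 libraries was left out, and without both libraries that stood apart the decrease was 2.05-fold at an edgeR adjusted p of 0.00597. The summed proximal tubule markers were also lower under VHL-KO;SETD2-KO, at 15980, 16030 and 27140 CPM under VHL-KO and 6537, 9021 and 7880 CPM under VHL-KO;SETD2-KO. Under VHL-KO, replicate 4 had the highest marker sum and the highest Slco3a1 level, and the sums of replicates 1 and 2 were close. Under VHL-KO;SETD2-KO, replicate 3 had the highest marker sum and the lowest Slco3a1 level. Single markers differed as well. In VHL-KO replicate 4, where Slco3a1 was highest, the phosphate carrier gene Slc34a1 stood at 14180 CPM against 4750 and 4970 in the other 2 libraries of the label, and the endocytic receptor gene Lrp2 at 938 against 3344 and 3378. Of those 10 markers 4 were called lower, against 4.68% of all tested genes, and 0 higher, against 2.66%. Without both libraries all 10 were called lower, against 10.4% of all tested genes. Their part in the decrease of Slco3a1 was not tested.

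Slco2a1, the prostaglandin transporter, was the abundant member with a positive fold change. It was at 77.9, 119 and 111 CPM under VHL-KO and at 201.5, 97.4 and 161.5 CPM under VHL-KO;SETD2-KO. VHL-KO;SETD2-KO replicate 3 lay among the VHL-KO libraries and the other 2 lay above all of them. Means were 103 ± 21.9 and 153 ± 52.5 CPM (SD, n = 3 each; log2 fold change 0.58, SE 0.44, edgeR adjusted p = 0.676). Without both libraries that stood apart the gene was 1.85-fold higher, with an edgeR adjusted p of 0.0335. The same 2 libraries that were high in Slco2a1 were high in endothelial markers, at 4559 and 3748 CPM, against 1462 CPM in VHL-KO;SETD2-KO replicate 3 and 1636, 1973 and 1066 CPM under VHL-KO. Podocyte markers stood at 4828, 1967 and 4289 CPM under VHL-KO;SETD2-KO and 1435, 1924 and 2085 CPM under VHL-KO. Of the endothelial markers 0 of 7 were called, though all 7 had a positive fold change. Of the podocyte markers 3 of 5 were called higher, against 2.66% of all tested genes. Without both libraries all 7 endothelial markers were called higher, against 13.4% of all tested genes. No marker of either list was at 0 in all libraries. Their part in the level of Slco2a1 was not tested.

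**Figure D5:**
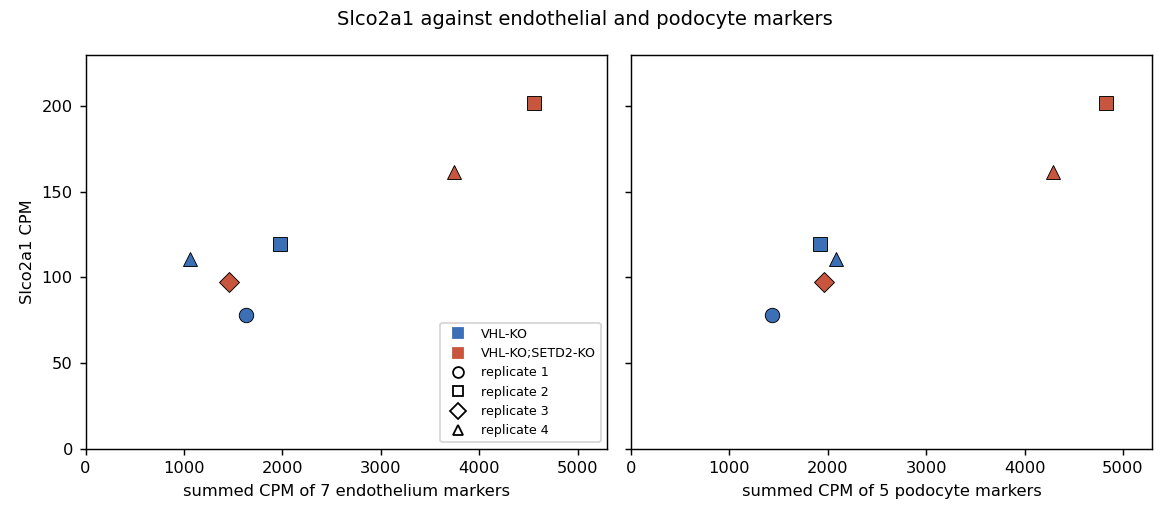
CPM of Slco2a1 in each library (vertical axis) against the summed CPM of 7 endothelial and of 5 podocyte markers (horizontal axis). The 2 libraries with the highest marker sums, VHL-KO;SETD2-KO replicates 2 and 4, have the highest Slco2a1 levels, 201.5 and 161.5 CPM.

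Slco2b1, a broadly expressed carrier of steroid sulfates, was low in 5 libraries and higher in VHL-KO replicate 4. Its levels were 4.84, 5.63 and 27.5 CPM under VHL-KO and 2.65, 7.25 and 3.32 CPM under VHL-KO;SETD2-KO, with overlap. The log2 fold change was -1.52 (SE 0.77, edgeR adjusted p = 0.625) with all libraries and -0.25 without VHL-KO replicate 4, so that this library decided its size. Collecting duct markers stood highest in the same library, at a summed 545 CPM against 49.9 to 268 CPM in the others. Most of that sum was the water channel gene Aqp2 at 257 CPM and Hsd11b2 at 129 CPM. Atp6v1g3, a proton pump subunit of intercalated cells, was at 2.71 CPM there, its lowest level in any library. Under VHL-KO;SETD2-KO 1 of 6 of these markers was called higher, against 2.66% of all tested genes, and 0 lower, against 4.68%. The summed markers of proximal tubule (27140 CPM), thick ascending limb (3181), fibroblast and smooth muscle (287.9), macrophage (336.5) and red blood cells (1880) were also highest in VHL-KO replicate 4. Not all single markers were. Umod made 2950 CPM of the thick ascending limb sum, while Slc12a1 (79.1 CPM) and the proximal Lrp2 (938 CPM) were at their lowest of all libraries. The macrophage gene Adgre1 and the fibroblast gene Dcn were not highest there either. The part of any of these marker groups in the level of Slco2b1 was not tested. Exons of Slco2b1 overlap those of 2 genes on the opposite strand in the annotation, Gm15635 and Gm34280, and whether counting used strand is not given in the sources used here.

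Slco4a1, a carrier of thyroid hormones found in many tissues, and Slco4c1, the basolateral carrier of thyroid hormones and cardiac glycosides in the proximal tubule, were both low. Slco4a1 was at 1.94, 3.88 and 10.4 CPM under VHL-KO and at 4.24, 8.71 and 5.51 CPM under VHL-KO;SETD2-KO. Its highest libraries were the 2 that stood apart, 1 under each label. The log2 fold change was 0.20 (SE 0.65, edgeR adjusted p = 0.919), and it turned to -0.12 without VHL-KO;SETD2-KO replicate 3 and to -0.19 without VHL-KO replicate 1. Slco4c1 had 30, 39 and 4 counts under VHL-KO and 30, 8 and 19 counts under VHL-KO;SETD2-KO, with overlapping levels of 0.373 to 3.60 CPM and 0.45 to 1.59 CPM. Its log2 fold change was -0.84 (SE 0.82, edgeR adjusted p = 0.744), and it ranged from -1.31 without VHL-KO replicate 4 to -0.05 without VHL-KO replicate 2. Neither gene was called with all libraries or without those that stood apart.

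The other 7 Slco genes of the table were at or near 0 and none passed the filter on low counts. Slco6c1 and Slco6d1 had 0 counts in all libraries, and the highest count among the others was 5, for Slco5a1 in VHL-KO;SETD2-KO replicate 2. Slco1a5, Slco1b2, Slco1c1 and Slco6b1 did not exceed 3 counts in any library.

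Genes that share substrates or partners with the Slco carriers were read from lists, beside the median log2 fold change of 0.01 over all tested genes. Over all tested genes 4.68% were called lower and 2.66% higher. Of 17 other organic anion transporters 6 were called lower under VHL-KO;SETD2-KO and 0 higher, with a median of -0.87. They included Slc22a6, the basolateral organic anion exchanger (log2 fold change -1.93), Slc22a12, the urate exchanger (-1.90), Slc22a7, another basolateral anion transporter (-2.28), and Slc51a, a subunit of the bile salt and steroid exporter (-2.20), all at an edgeR adjusted p of 0.625. Over the whole list 7 of 17 genes separated by label without overlap, all lower under VHL-KO;SETD2-KO, and 10 overlapped, against the 20.6% of all tested genes without overlap. Of 5 PDZ proteins, which anchor carriers such as Slco1a1 in the brush border, 2 were called lower, Pdzd3 (-1.40) and Slc9a3r1 (-1.74), with a list median of -1.20.

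Calls among prostaglandin genes, the partners of Slco2a1 and Slco3a1, depended on the setting. Of 15 genes tested among 16 for synthesis, breakdown and receptors, 0 were called by edgeR as fitted here, and the median was 0.44. DESeq2 and edgeR with RLE size factors each called 2 lower, against 7.75% and 5.28% of all tested genes. With no filter on low counts edgeR called 3 lower, against 3.69%. Without both libraries that stood apart it called 1 lower and 3 higher, against 10.4% and 13.4% of all tested genes. The smallest p-values were those of the synthases Ptgds (log2 fold change -1.50, edgeR adjusted p = 0.625) and Ptges2 (-1.59). The median of 10 genes for thyroid hormone transport and action was -0.42. Of these, 2 were called lower, against 4.68% of all tested genes, and 0 higher, against 2.66%. Those called lower included Ttr, the plasma carrier transthyretin (-1.67).

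Of 17 transcription factors and hormone receptors named in the regulation of hepatic and renal carriers, 16 were tested, with a median of -0.55. By edgeR 3 were called lower, against 4.68% of all tested genes, and 1 higher, against 2.66%. Those called lower included Hnf4a, a nuclear receptor of proximal tubule identity (log2 fold change -1.04, edgeR adjusted p = 0.625), and Prlr, described above, was the gene called higher. Without VHL-KO;SETD2-KO replicate 3, 0 genes of this list were called in either direction, against 2.2% of all tested genes lower and 2.37% higher. Without both libraries 9 were called lower and 1 higher, against 10.4% and 13.4% of all tested genes.

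For each member, the genes most like it were sought by Pearson correlation of log2 CPM over the 6 libraries among 12398 genes. With so few libraries, of which 2 stand apart, many genes reach a high correlation, and these values are a description. Only VHL-KO replicate 4 was left out as a check. VHL-KO;SETD2-KO replicate 3, where Slco1a1 was lowest, was kept throughout, so how far the correlations rest on it was not tested. Without VHL-KO replicate 4, Acsm3 remained the gene most like its member, Prim2 was at rank 2 and Hsd17b11 at rank 3, whereas Rassf7 was at rank 11, Dynll1 at 14, Aqp6 at 19, Rnaseh2b at 22, Pdk2 at 22, Flt4 at 35 and Als2cr12 at 49. Slco1a1 was followed most closely by Acsm3, a mitochondrial acyl-CoA synthetase, at r = 0.9998 with all libraries and again without VHL-KO replicate 4. Acsm3 stood at 923, 753 and 76.6 CPM under VHL-KO and 227, 0.787 and 276 CPM under VHL-KO;SETD2-KO, the order of the libraries being that of Slco1a1. Slco3a1 was most like Hsd17b11, a steroid and lipid droplet dehydrogenase (r = 0.998), at 387 to 566 CPM under VHL-KO and 81.7 to 155 CPM under VHL-KO;SETD2-KO. Slco2a1 was most like Dynll1, a dynein light chain (r = 0.988), and Flt4, the receptor VEGFR3 of lymphatic and some fenestrated endothelium (r = 0.987). Slco2b1 was most like Rassf7 (r = 0.999) and Pdk2, a pyruvate dehydrogenase kinase (r = 0.998), both highest in VHL-KO replicate 4. Slco4a1 was most like Aqp6, an aquaporin of intercalated cells (r = 0.993), which stood highest, at 42.8 and 28.1 CPM, in the 2 libraries that stood apart. For Slco1a6 the leading gene was Als2cr12 (r = 0.996), for Slco1a4 it was Rnaseh2b (r = 0.996) and for Slco4c1 it was Prim2 (r = 0.997).

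Among the members themselves, the correlation of log2 CPM between the chromosome 6 neighbours depended on VHL-KO replicate 4. Over the 6 libraries it was 0.89 between Slco1a1 and Slco1a4, 0.65 between Slco1a1 and Slco1a6 and 0.74 between Slco1a4 and Slco1a6. Without that library the same pairs were at 0.89, 0.87 and 0.97. Slco1a6 and Slco4a1 ran against each other, at -0.95 with all libraries and -0.94 without it. These correlations share libraries and their depth, and no p is given for them.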

How the data were processed

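RNA was extracted by the authors with Trizol, and directional libraries were sequenced as paired ends of 150 bases. Per the submitters' processing notes, HISAT2 2.0.4 and the build GRCm38 were used. The counting program, annotation and strand setting are not given in the sources used here. The authors deposited raw counts per gene symbol, 1 column per library, and 0 per-sample columns were left unused. The labels give genotype and replicate, and the study gives 3 mice per group.

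From the deposited counts of 46095 genes, edgeR 4.0.16 in R 4.3.3 gave TMM factors, CPM and the quasi-likelihood test on the 14611 genes passing filterByExpr, with no term beside genotype. The call required p under 0.05 and a change of 1.5-fold or more. Benjamini-Hochberg adjustment ran over all tested genes, except that DESeq2 left some without an adjusted p. P-values come from edgeR unless DESeq2 is named. DESeq2, the package used by the study, here in version 1.42.0, and limma 3.58.1 (voom) served as alternatives. Log2 CPM for correlations used a prior count of 2. Positions and transcript lengths came from GENCODE M21, and promoters from RefSeq. The fit was tested on simulated data with 200 of 14611 genes changed, by a log2 fold change of 2 in either direction. All genes had the same dispersion (spread between libraries), and no library was made to stand apart, unlike in these data. At a dispersion of 0.272, the common value fitted to these data, the unadjusted rule called 778 genes. Of these 174 were right and 604 false. After adjustment 32 genes were called, 31 of them right, so most changed genes were missed. At a dispersion of 0.05 the adjusted rule called 205 genes, 197 of them right. Total counts ranged from 11168552 to 17883466, which sets the detection floor. No pair of libraries was a duplicate: the lowest chi-square per degree of freedom over 15 pairs was 13.3.

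The members and lists were chosen with earlier results of these data known. Named genes were the members, the deleted genes, sex-linked genes, up to 4 called genes of each list (or 2 with the smallest p where none was called), and the 2 genes most correlated with each member at a mean log2 CPM of at least 1. Gm15635, Gm34280, Gm6344, the minor Slco genes and single marker genes (Slc34a1, Lrp2, Aqp2, Hsd11b2, Atp6v1g3, Umod, Slc12a1, Adgre1, Dcn) fall outside the rule or were added after their values were seen. Some genes that meet the rule are not reported here. Alternatives were RLE size factors, DESeq2, limma-voom, other count filters, library sizes without the 20 highest genes, a fold change of at least 2, the replicate number as a block, leaving out each library, and, added after seeing the data, leaving out both libraries that stood apart and crossed pairs.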

Additional observations from a re-analysis of the deposited data

How the results depend on the processing

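Of the alternatives tried, RLE size factors, limma-voom, library sizes without the 20 highest genes and a fold change of at least 2 changed no call among the 8 members. Over all alternatives, 101 log2 fold changes of members kept their direction and call, 9 gained a call, 8 lost it and 8 changed sign. Of 640 counts of called genes in the lists, 511 stayed within 1.5 times, with counts that stayed at 0 taken as unchanged. Many list counts were 0 in the main fit, among them those of the other Slco genes, so the 511 are no measure of stability. The median log2 fold change over all genes was 0.13 in limma-voom and 0.11 under the replicate block, against 0.01 in edgeR. DESeq2 also called Slco2b1 lower (log2 fold change -1.56), with 1133 genes lower and 51 called at an adjusted p, and so did the fit with no filter (-1.42), with 634 genes higher and 2 adjusted. At least 10 counts in every library left 1 member called lower, Slco3a1, since Slco1a4 was not tested, and 0 genes adjusted, since Gm6344 was not tested. Slco4c1 was not tested either. Leaving out each library in turn left 1 to 3 members lower and 206 to 1078 genes lower, 179 to 1243 higher and 0 to 1 adjusted. The log2 fold change then ranged from -3.02 to -1.66 for Slco1a4, -1.18 to -0.25 for Slco1a6, -2.06 to -0.25 for Slco2b1, -0.19 to 1.09 for Slco4a1 and -1.31 to -0.05 for Slco4c1.

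Leaving out both libraries that stood apart gave 5 members lower, 1 higher and 5 adjusted, with 1531 genes lower, 1976 higher and 2474 adjusted, and log2 fold changes of -1.85 for Slco1a1, -0.97 for Slco1a6, 0.88 for Slco2a1 and -0.81 for Slco2b1.

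The labels share the replicate numbers 2 and 4 but do not say that these pair the mice, and the correlation of same-numbered libraries about their group means was 0.16 for number 2 and -0.32 for number 4. With the replicate number as a block, which leaves few degrees of freedom, Slco1a1 was at -0.03 and 0 members were called, with 54 genes lower and 93 higher. Slco1a4 (-1.07) and Slco3a1 (-1.32) lost their calls and Slco1a6 (0.37), Slco4a1 (-0.40) and Slco4c1 (0.073) changed sign. With crossed pairs as the block, 0 members were called, with 85 genes lower and 143 higher. Slco1a4 was then at -1.07 and Slco3a1 at -1.32, and Slco1a6 (0.37), Slco4a1 (-0.40) and Slco4c1 (0.054) changed sign again. Under either block VHL-KO replicate 1 and VHL-KO;SETD2-KO replicate 3 had no partner. The fold change between labels therefore rested on replicates 2 and 4 of each label alone. Depth limits Slco1a4 and Slco4c1, which fell to 1 and 4 counts in a library.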
